A study of Arabidopsis thaliana with 69 samples.

Results

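The ends left when a miRNA directs the cutting of its target RNA were compared between dcl1-5 and wild-type embryos of Arabidopsis thaliana at the globular stage. These ends were read by nanoPARE, which maps the 5′ ends of transcripts from very small RNA inputs, and they were called with EndCut, which tests whether reads pile up at the position where a miRNA should cut. A site is a target transcript plus a cut position, and its level is the reads ending there as RPM, scaled by the authors to mapped reads. All 719 sites listed in at least 1 of the 6 globular tables were kept, of 1735 in all 33 nanoPARE tables of the series. They lie in 688 genes and are assigned to 120 miRNA names, grouped here into 96 families.

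The 3 dcl1-5 libraries came from embryos homozygous for the dcl1-5 allele, picked by their abnormal form from seeds of selfed heterozygous plants. The 3 wild-type libraries came from Col-0 embryos, and dcl1-5 is in the Col-0 background, so both genotypes share accession, growth chamber and day length. Each library was made from a pool of embryos, so a library is 1 pool and not 1 embryo. Per the paper, replicate pools were collected on different days. The same study also holds nanoPARE tables of 21 wild-type embryo libraries of other stages and of 6 xrn4-5 root and shoot libraries, which serve here only to show where else a site was listed.

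DICER-LIKE 1 (DCL1) cuts the hairpin precursors of plant miRNAs to release the mature miRNA. The miRNA is then loaded into an ARGONAUTE protein and guides it to a nearly complementary stretch of a target RNA, which is sliced between the bases that pair with miRNA bases 10 and 11. The 3′ fragment starts with a free phosphate and is what nanoPARE can catch. Plant targets of this kind are enriched for developmental transcription factors and for TAS RNAs, noncoding transcripts whose slicing starts the production of trans-acting siRNAs. The fit between a miRNA and a site is summed up by the Allen score, in which mismatches count 1 and G:U pairs count 0.5, with both doubled at miRNA bases 2 to 13. A score of 0 is perfect pairing, and the sites were split at scores of 2 and 4.

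The labels were checked on the mutated gene and on the miRNAs. DCL1 transcripts were at 0.0226, 0.0359 and 0.0268 TPM, the kallisto estimate of transcript level in the 3 dcl1-5 mRNA-seq libraries, which is 4 or 5 estimated counts in each. Mature miRNAs summed to 316, 207 and 426 RPM in the dcl1-5 globular small RNA libraries, against 18665, 23459 and 35060 RPM in the wild-type globular ones. All embryo markers tested in dcl1-5 mRNA-seq were present, with LEC1 at 224 to 248 TPM, WOX9 at 24.5 to 30.5 TPM, WOX2 at 25.1 to 30.1 TPM and DRN at 10.5 to 12.8 TPM. The endosperm markers AGL62, FWA, PHE1 and ZOU ranged over 0.194 to 5.39 TPM, and the seed coat markers BAN and TT12 lay at 11.1 to 16.4 and 0.502 to 0.814 TPM. The embryo marker DRN was below BAN in each library. The paper applied a tissue-enrichment test to the dcl1-5 and wild-type transcriptomes and reported no significant contamination from other seed tissues. Wild-type mRNA-seq was not analysed here.

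One library stood apart. The number of sites listed was 201, 177 and 66 in dcl1-5, and 185, 330 and 247 in wild type, so dcl1-5 replicate 3 had the fewest. Levels within a library fall on a regular grid, and the inverse of the grid step gave relative depths of 1.10, 1.11 and 0.667 for the dcl1-5 libraries and 1, 0.940 and 0.812 for the wild-type libraries. The step is taken here as the same part of a read in each library. It is finer than 1 read, so whole reads were not recovered and the depth in reads is not known. Results are given with dcl1-5 replicate 3 and, where it matters, without it. A site missing from a library's table was set to 0 RPM and is called not listed.

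The sequences that the strongest differences turn on are shown first, as DNA, 5′ to 3′, from the RefSeq TAIR10.1 assembly. In each miRNA the seed, bases 2 to 8, is in capitals.
miR171a-3p: tGATTGAGccgcgccaatatc
miR160a-5p: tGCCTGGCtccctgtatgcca
miR403-3p: tTAGATTCacgcacaaactcg
miR173-5p: tTCGCTTGcagagagaaatcac
miR5665: tTGGTGGAcaagatctgggat
In each target site the capitals mark the bases on either side of the cut, which pair with miRNA bases 11 and 10. The first 7 lines are sites of known targets, and the last is a highly listed site of score 6 with poor pairing, shown for contrast.
HAM1 and HAM2 (score 0): gatattggcgCGgctcaatca
ARF17 (score 0.5): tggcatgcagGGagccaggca
ARF10 (score 2): aggaatacagGGagccaggca
AGO2 (score 1): ggagtttgtgCGtgaatctaa
TAS1C (score 2.5): gtgatttttctCTacaagcgaa
TAS2 (score 2.5): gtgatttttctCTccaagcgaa
TAS1B (score 4.5): gtgatttttctCAacaagcgaa
eEF-1Bb1 (score 6): gttgcagattTTgtgcaccat

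The mature miRNAs are encoded at chr3:19073521-19073541 (miR171a-3p), chr2:16340282-16340302 (miR160a-5p), chr2:19415154-19415174 (miR403-3p) and chr3:8236161-8236182 (miR173-5p) on the plus strand, and at chr5:19499093-19499113 on the minus strand (miR5665). The HAM1 site lies at chr2:18619128-18619148 on the minus strand and the identical HAM2 site at chr3:22411544-22411564 on the minus strand, both in coding sequence. The ARF17 site is at chr1:29274189-29274209 and the ARF10 site at chr2:12115741-12115761, both on the plus strand and in coding sequence. The AGO2 site, at chr1:11185223-11185243 on the plus strand, is in the 3′ UTR. The TAS sites are in noncoding exons on the minus strand, TAS1C at chr2:16537890-16537911, TAS2 at chr2:16539991-16540012 and TAS1B at chr1:18549660-18549681. Counting from 1 at the 5′ end of the site, TAS2 differs from TAS1C by A14C and TAS1B by T13A, and position 13 is the base that faces miRNA base 10. The eEF-1Bb1 site is in coding sequence at chr1:10640287-10640307 on the plus strand.

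Sites with the best pairing were nearly lost from dcl1-5 embryos, whereas at poorly paired sites the summed level differed less. The 19 sites of score 0 to 2 summed to 0.446, 0.107 and 0 RPM in the dcl1-5 libraries, against 38.3, 30.0 and 20.0 RPM in the wild-type libraries. The groups did not overlap, and the means differed 160-fold (0.184 ± 0.233 RPM in dcl1-5 and 29.5 ± 9.17 RPM in wild type, SD, n = 3 each). The fold rests on few dcl1-5 ends: it was 551-fold without dcl1-5 replicate 1 and 107-fold without dcl1-5 replicate 3. In the class above 2 to 4, with 86 sites, the sums were 4.45, 3.38 and 1.53 RPM in dcl1-5 and 67.2, 53.8 and 40.2 RPM in wild type, a 17.2-fold difference. Few sites carried most of these wild-type sums. HAM1 held 15.0 RPM of the mean of 29.5 RPM at score 0 to 2. TAS1C, TAS1A and TAS2, all sites of miR173, held 23.7, 10.8 and 7.57 RPM of the mean of 53.7 RPM above 2 to 4. The 614 sites above 4 summed to 85.9, 76.4 and 25.7 RPM in dcl1-5 and 120.7, 108.0 and 108.2 RPM in wild type, a 1.79-fold difference. Without dcl1-5 replicate 3 the difference was 1.38-fold above 4 and 13.7-fold above 2 to 4. All of these are pools of whole embryos, so fewer cells of a type and less RNA per cell cannot be told apart.

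The number of sites listed showed the same order of classes. Of score 0 to 2, the dcl1-5 libraries listed 2, 1 and 0 sites and the wild-type libraries 8, 15 and 10. Above 2 to 4, the numbers were 20, 15 and 12 in dcl1-5 and 31, 42 and 36 in wild type. Above 4, the dcl1-5 libraries listed 179, 161 and 54 sites and the wild-type libraries 146, 273 and 201, and here the groups overlapped (exact permutation test, two-sided, p = 0.3). The two-sided exact test of the other counts and of all 3 sums gave p = 0.1, the smallest that 3 libraries against 3 allow.

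Set against the total level listed in each library, sites of score 0 to 2 held 0.491%, 0.134% and 0% in dcl1-5 and 16.9%, 15.7% and 11.9% in wild type. The log2 ratio of their summed level to that of sites above 4, with 0.1 RPM added to both sums, averaged -7.95 ± 0.62 in dcl1-5 and -1.97 ± 0.40 in wild type (SD, n = 3 each, exact permutation test, two-sided, p = 0.1). The size of this difference depends on the added constant, since the dcl1-5 sums are near 0.1 RPM: with 1 RPM added it was -3.65 (exact permutation test, two-sided, p = 0.1). Without dcl1-5 replicate 3 the difference in the ratio was -5.94, against -5.97 with it. In the plot of counts and sums by score, the summed levels of the genotypes, on a log scale, are farthest apart at score 0 to 2 and nearest above 4.

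**Figure D1:**
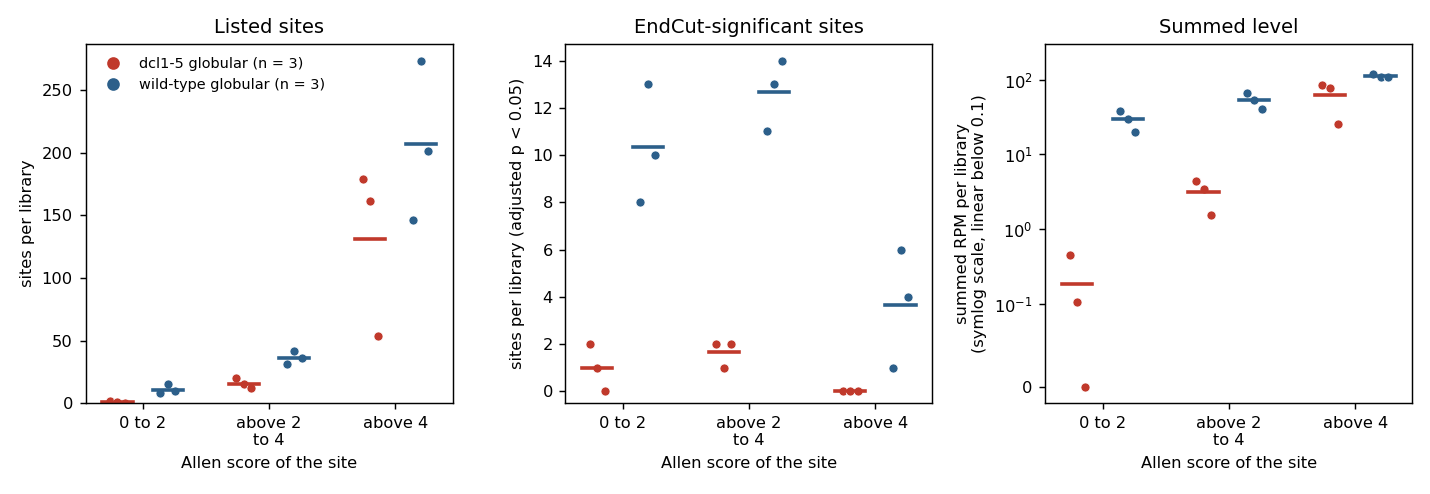
Listed sites, sites significant by EndCut and summed RPM per library (y axes, the last on a symlog scale) against the Allen score class of the site (x axis), with 1 point per library and a bar at the mean of 3 libraries, dcl1-5 in red and wild type in blue. The summed level of score 0 to 2 sites is at most 0.446 RPM in dcl1-5 and at least 20.0 RPM in wild type, whereas for sites above 4 the dcl1-5 libraries reach 85.9 RPM and the wild-type libraries 120.7 RPM.

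EndCut gives each listed site an adjusted p, and sites below 0.05 are called significant here. In the dcl1-5 libraries 4, 2 and 2 sites were significant, against 20, 32 and 28 in the wild-type libraries (exact permutation test, two-sided, p = 0.1). The wild-type libraries together had 47 significant sites, of which 34 were not listed in any dcl1-5 library. None of the sites above 4 was significant in a dcl1-5 library, whereas 1, 6 and 4 were in the wild-type libraries. Significance did not follow level alone. In wild-type replicate 2 the SPL13A site, of score 0, was significant at 0.0675 RPM, and the MEE26 site, of score 6, was not at 7.09 RPM. Whether the adjusted p takes in the score was not checked, so significance may not be independent of the score class. The dcl1-5 significant sites were TAS1A in 2 libraries, TAS1C in 2 libraries, and AGO2, ARF10, HAM2 and AT3G61310 in 1 library each. Of these, AT3G61310, which encodes an AT-hook protein and is assigned to miR167d, was listed in no wild-type globular library, and it had 0.135 RPM in dcl1-5 replicate 3 alone. It was significant in 7 of the 21 wild-type libraries of other stages.

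Single sites were tested with limma on log2(RPM + 0.1), over the 269 sites listed in at least 2 of the 6 libraries. The SE that limma gives a site is drawn largely from all tested sites of a like level, not from its own libraries. At an adjusted p below 0.05, 20 sites were lower in dcl1-5, which is 7.43% of those tested, and 1 site was higher, which is 0.372%. By class, 6 of 8 tested sites of score 0 to 2 were lower, 5 of 34 above 2 to 4, and 9 of 227 above 4. The remaining 450 sites were listed in 1 library and not tested, among them 11 of score 0 to 2. Of the tested sites, 74 were listed in wild type alone and 18 in dcl1-5 alone, so they entered the test through the genotype in which they were higher. The 3 dcl1-5 levels were all below the 3 wild-type levels at 40 sites, 14.9% of those tested, and by class at 6 of 8, 9 of 34 and 25 of 227 sites.

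Both GRAS genes with a listed site, HAM1 (AT2G45160) and HAM2 (AT3G60630), lost nearly all ends at the perfect miR171 site. HAIRY MERISTEM genes of this family keep shoot meristem cells undifferentiated. The HAM1 site was not listed in any dcl1-5 library and had 21.4, 14.7 and 8.87 RPM in wild type (limma adjusted p = 1.75e-09). It was the highest of the score 0 to 2 sites, and transcripts of the gene stood at 28.1 TPM in dcl1-5 mRNA-seq. The HAM2 site had 0, 0.107 and 0 RPM in dcl1-5, against 2.84, 5.57 and 2.46 RPM in wild type (log2 fold change -4.78 ± 0.94 SE on the log2(RPM + 0.1) scale, limma adjusted p = 1.51e-05). Both groups were apart at each of these sites, and both sites were also significant in all 21 wild-type libraries of other stages.

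The auxin response factors ARF10 and ARF17, repressors in the auxin pathway that are targets of miR160, both lost ends. The ARF17 site was not listed in dcl1-5 and had 3.51, 1.95 and 2.18 RPM in wild type (limma adjusted p = 1.51e-05). The ARF10 site had 0.356, 0 and 0 RPM in dcl1-5 and 4.85, 2.27 and 2.38 RPM in wild type (log2 fold change -4.21 ± 0.94 SE, limma adjusted p = 0.000237), a call lost when any 1 wild-type replicate was left out (adjusted p 0.0510 to 0.0793 in limma). ARF16 is also on the list of miR160 targets. Its site, of score 2.5, had 0.207 RPM in dcl1-5 replicate 2 and was not listed in any other library of the 6, and it was not tested.

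AGO2 encodes an ARGONAUTE that takes part in antiviral defence and is itself a target of miR403. Its site had 0.0904, 0 and 0 RPM in dcl1-5 and 2.00, 3.12 and 1.59 RPM in wild type (log2 fold change -4.18 ± 0.92 SE, limma adjusted p = 0.000164), with no overlap between the groups. The other ARGONAUTE site, that of miR168 in AGO1 with a score of 5, was not listed in dcl1-5 and had 0.241, 0.186 and 0 RPM in wild type, which did not pass the test.

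SPL genes encode transcription factors that promote the change from juvenile to adult growth, and miR156 restrains them. None of the 7 listed SPL sites, all of score 0, was listed in any dcl1-5 library, but most were listed in a single wild-type library. SPL2 had 2.95, 1.05 and 0 RPM in wild type (limma adjusted p = 0.0366). SPL10 had 1.07 RPM in wild-type replicate 3 alone and SPL15 0.438 RPM in wild-type replicate 1 alone, and neither could be tested. The sites in SPL13A and SPL13B have the same level in each library, 0.0675 RPM in wild-type replicate 2, so they may not be separate measurements. Each of the 7 SPL sites was listed in 14 to 18 of the 21 wild-type libraries of other stages. The SPL2 call is one of the less firm ones: it was kept in 5 of 13 alternative settings and lost without any 1 of the dcl1-5 replicates (limma adjusted p of 0.0971 to 0.258).

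The other sites of score 0 to 2 with the highest levels had low values throughout. LCR, an F-box gene of leaf shape that miR394 targets, was not listed in dcl1-5 and had 0, 0.216 and 1.05 RPM in wild type (limma adjusted p = 0.346). The pentatricopeptide repeat gene AT1G63400, a miR161.2 target, was not listed in dcl1-5 and had 0.352, 0.178 and 0.114 RPM in wild type, also short of the threshold. HTA8, a histone H2A gene, and AT2G47020 each had a site in wild-type replicate 2 alone, at 0.272 and 0.168 RPM.

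**Figure D2:**
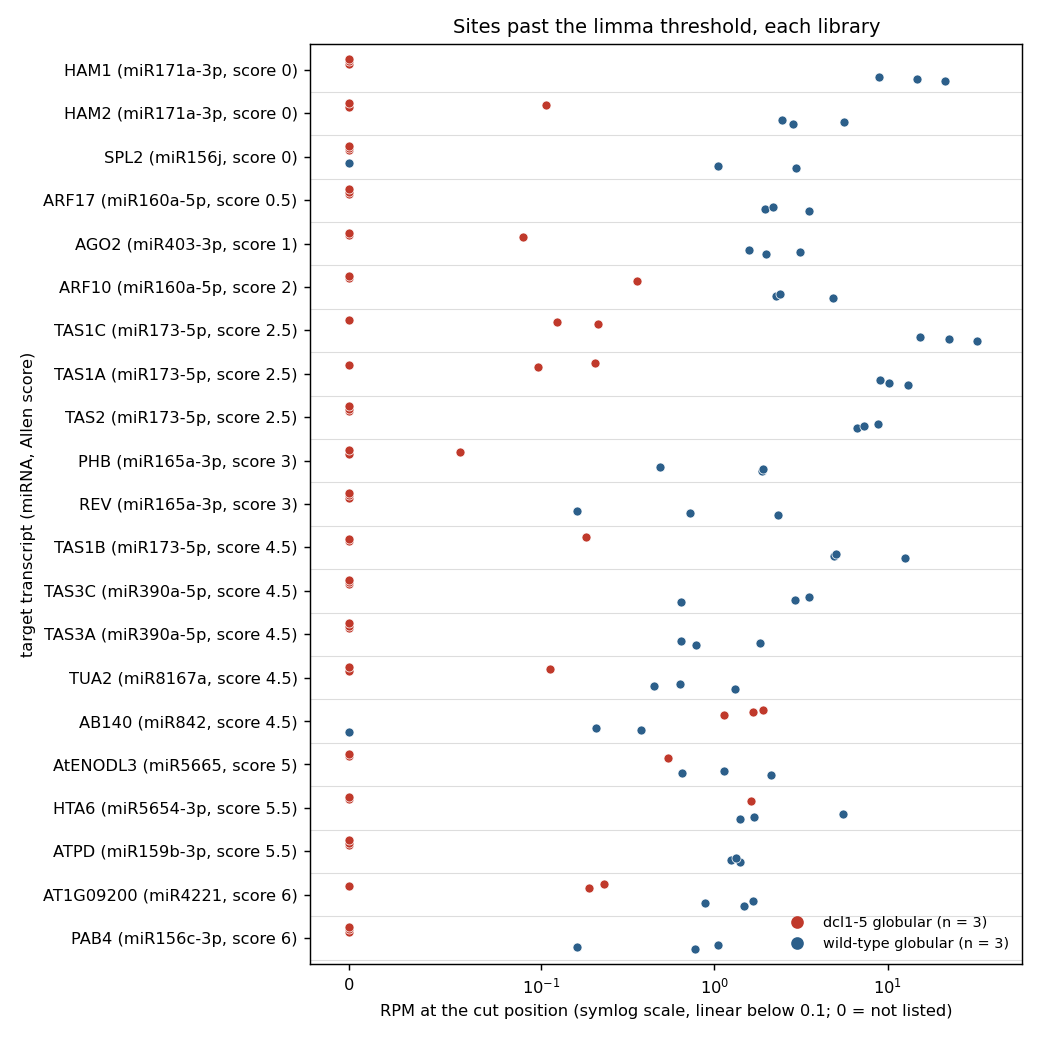
RPM in each library (x axis, symlog scale, linear below 0.1, with 0 for not listed) at the 21 sites past the limma threshold (y axis, ordered by Allen score, with the miRNA and score in brackets), dcl1-5 points in red above wild-type points in blue. HAM1 lies at 0 in dcl1-5 and at 8.87 to 21.4 RPM in wild type, HTA6 overlaps between the genotypes, and the CAB1 site (AB140 in the tables) lies to the right in dcl1-5.

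TAS transcripts gave almost no ends in dcl1-5, and TAS1C had the highest mean level of all sites in wild type. All 4 TAS RNAs that miR173 cuts were lower. TAS1C had 0.214, 0.124 and 0 RPM in dcl1-5, against 33.0, 22.5 and 15.5 RPM in wild type (log2 fold change -6.89 ± 1.18 SE, limma adjusted p = 6.11e-07). TAS1A had 0.0983, 0 and 0.203 RPM in dcl1-5 and 13.1, 10.1 and 9.05 RPM in wild type (limma adjusted p = 2.31e-06). TAS2 was not listed in dcl1-5, and its 6.67, 7.28 and 8.75 RPM in wild type spread little (limma adjusted p = 2.49e-08). These 3 sites have a score of 2.5, and the groups did not overlap at any of them.

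TAS1B, with the mismatch at the cut, has a score of 4.5 and so belongs to the class above 4. It had 0, 0 and 0.180 RPM in dcl1-5 and 12.6, 4.91 and 5.04 RPM in wild type (log2 fold change -5.61 ± 0.99 SE, limma adjusted p = 1.34e-06). The other TAS RNAs, TAS3A and TAS3C, are cut by miR390 and yield siRNAs against auxin response factors. TAS3C was not listed in dcl1-5 and had 0.645, 2.93 and 3.50 RPM in wild type (limma adjusted p = 7.10e-05). TAS3A at its second site was not listed in dcl1-5 and had 0.780, 1.82 and 0.642 RPM in wild type (limma adjusted p = 0.00348). Another TAS3A site of miR390, upstream of it, had 0.315 RPM in dcl1-5 replicate 2 and nothing in wild type. TAS1C transcripts were present in dcl1-5 mRNA-seq at 26.3 TPM, TAS2 at 19.4 TPM and TAS3A at 484 TPM, while TAS3C was at 0.539 TPM.

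Class III HD-ZIP genes, which set the upper side of organs and the centre of the embryo, made up the rest of the calls between scores of 2 and 4. Of 4 genes with a miR165/miR166 site, PHB and REV were lower. The PHB site had 0, 0.0579 and 0 RPM in dcl1-5 and 1.87, 1.92 and 0.482 RPM in wild type (log2 fold change -3.51 ± 0.91 SE, limma adjusted p = 0.00258), a call lost without wild-type replicate 1 or 2 (limma adjusted p = 0.0793 and 0.0581). The REV site was not listed in dcl1-5 and had 2.34, 0.722 and 0.160 RPM in wild type (limma adjusted p = 0.0190), a call kept in 8 of 16 alternative settings and lost without dcl1-5 replicate 2 or 3 or wild-type replicate 1 or 2 (limma adjusted p of 0.0734 to 0.153). PHV had 0, 0.0304 and 0 RPM in dcl1-5 and 0.845, 0.305 and 0.520 RPM in wild type, so the groups did not overlap although the test was not passed. CNA was listed only in wild-type replicate 2, at 0.108 RPM. PHB transcripts stood at 213 TPM in dcl1-5 mRNA-seq and PHV at 119 TPM.

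Several well-known targets did not pass the test. ARF8, a miR167 target, had 0, 0.291 and 0 RPM in dcl1-5 and 2.38, 1.69 and 0 RPM in wild type (limma adjusted p = 0.122). ARF6, with a score of 5, had 0, 0.522 and 0 RPM in dcl1-5 and 0.957, 1.74 and 0.156 RPM in wild type. CUC2, a boundary gene cut by miR164, was not listed in dcl1-5 and had 0, 0.446 and 0.294 RPM in wild type, and its relative CUC1 had 0.121, 0 and 0 RPM in dcl1-5 and 0, 0.258 and 0 RPM in wild type. MYB65, a miR159 target, had 0.240, 0 and 0 RPM in dcl1-5 and 0.620, 0.297 and 0 RPM in wild type. In each of these the range in dcl1-5 met that in wild type.

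The growth-regulating factors GRF1 and GRF2, both cut by miR396 at sites of score 4, were each listed in 2 dcl1-5 libraries. GRF1 had 0, 0.145 and 0.410 RPM in dcl1-5 and 0, 0.184 and 0 RPM in wild type. GRF2 had 0.133, 0.164 and 0 RPM in dcl1-5 and 0.742, 0.315 and 0.0943 RPM in wild type. Neither site passed the test, and neither was EndCut-significant in any of the 6 libraries.

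Over the whole list of 74 target genes, chosen with earlier results of these data known, 46 had a listed site and gave 52 sites. Of these sites 14 were lower and 0 higher, 17 did not pass the test and 21 were not tested. That is 45.2% lower of the 31 tested, beside 7.43% lower and 0.372% higher over all tested sites. Because of how the list was chosen, the larger share is not independent of these data. The list includes sites of other miRNAs in the same genes. The summed level of the 52 sites ranged over 0.940 to 2.82 RPM in dcl1-5 and over 64.1 to 117.8 RPM in wild type.

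Of the 105 sites of score up to 4, 39 were listed in at least 1 dcl1-5 library, at no more than 0.894 RPM in any of them. No such site was listed in all 3 dcl1-5 libraries. Between 2 and 4, 20 of the 86 sites were listed in both genotypes, 50 in wild type alone and 16 in dcl1-5 alone. Of the 16, all but the MYB11 site were in a single dcl1-5 library. MYB11, a regulator of flavonol synthesis assigned to miR858a, had 0, 0.381 and 0.146 RPM in dcl1-5 and was not listed in the wild-type globular libraries or at any other wild-type stage.

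Above a score of 4, the 6 sites with the highest mean level were in MEE26, eEF-1Bb1, TAS1B, AT5G27850, AT3G56020 and HTA6, of which TAS1B and HTA6 were lower in dcl1-5 and the other 4 did not pass the test. MEE26, which encodes a hydroxyproline-rich glycoprotein and stood at 5520 TPM in dcl1-5 mRNA-seq, had the highest mean level of the class, at a site assigned to miR390a-5p with a score of 6. It had 13.4, 18.4 and 0.410 RPM in dcl1-5, against 8.49, 7.09 and 5.86 RPM in wild type (log2 fold change -0.51 ± 1.63 SE, limma adjusted p = 0.930). The sign rests on dcl1-5 replicate 3: without it the log2 fold change was 1.14 ± 0.25 SE and the site was called higher (limma adjusted p = 0.0117). The site of eEF-1Bb1, a translation elongation factor subunit, had 6.01, 3.58 and 0 RPM in dcl1-5 and 7.60, 3.61 and 6.27 RPM in wild type (limma adjusted p = 0.346), so the groups overlapped. Neither site was EndCut-significant in any of the 27 embryo libraries.

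Ribosomal protein genes recurred among these sites. By their RefSeq product names, 22 of the 614 sites above 4 lie in ribosomal protein transcripts, which is 3.58%, and they include 7 of the 25 sites of the class with the highest mean level. There were 0 among the 105 sites of score up to 4. AT5G27850, a ribosomal L18e/L15 gene assigned to miR396b-5p, had 2.78, 2.18 and 0 RPM in dcl1-5 and 4.84, 5.90 and 5.20 RPM in wild type (limma adjusted p = 0.194). AT3G56020, a ribosomal L41 gene assigned to miR831-3p, had 0.890, 1.36 and 0 RPM in dcl1-5 and 2.39, 2.76 and 3.32 RPM in wild type (limma adjusted p = 0.144). Both had dcl1-5 values below each wild-type value, without passing the test. The AT3G56020 site lies 71 bases into its transcript, and 39 sites above 4 lie within the first 200 bases of theirs.

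Of the 9 sites above 4 that were lower in dcl1-5, 4 were in TAS1B, TAS3C, TAS3A and ATPD. The paper named ATPD as a miR159 target from nanoPARE data that include these libraries. ATPD encodes the delta subunit of the chloroplast ATP synthase, and its miR159 site of score 5.5 was not listed in dcl1-5 and had 1.41, 1.25 and 1.33 RPM in wild type (limma adjusted p = 0.000615). These 4 were EndCut-significant in at least 1 wild-type globular library and in 13 to 16 of the 21 other wild-type libraries. The other 5 were in the histone H2A gene HTA6, the histone superfamily gene AT1G09200, the tubulin gene TUA2, the poly(A)-binding protein gene PAB4 and the early nodulin-like gene AtENODL3. The last 4 fell outside the rule for naming sites and were chosen after their values were seen. None of these 5 was EndCut-significant in any wild-type embryo library. HTA6 had 1.63, 0 and 0 RPM in dcl1-5 and 1.41, 1.70 and 5.51 RPM in wild type (log2 fold change -3.26 ± 0.96 SE, limma adjusted p = 0.0133), and its groups overlapped. The HTA6 call held without dcl1-5 replicate 1 and was lost without any other 1 library (limma adjusted p of 0.0971 to 0.379). The 5 calls were kept in 4 to 7 of 16 alternative settings, whereas those of TAS1B, TAS3C, TAS3A and ATPD were kept in all 16.

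The 1 site that was higher in dcl1-5 is in CAB1 (AT1G29930, AB140 in the tables), a chlorophyll a/b-binding protein gene, and is assigned to miR842 with a score of 4.5. It had 1.13, 1.66 and 1.92 RPM in dcl1-5 and 0, 0.375 and 0.207 RPM in wild type (log2 fold change 2.74 ± 0.93 SE, limma adjusted p = 0.0438). All 3 dcl1-5 values were above all 3 wild-type values, which held at this site alone, 0.372% of those tested. The call was kept in 7 of 16 alternative settings. It held without dcl1-5 replicate 1 and was lost without any other 1 library (limma adjusted p of 0.0617 to 0.153). The site was significant by EndCut in none of the 27 embryo libraries. The transcript stood at 2405 TPM in dcl1-5 mRNA-seq.

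One site significant at most other stages did not differ between the genotypes by more than its spread. The site of AT1G08125, a methyltransferase-like gene, is assigned to miR390a-3p with a score of 5 and was EndCut-significant in 16 of the 21 wild-type libraries of other stages. It had 3.06, 0.454 and 0.466 RPM in dcl1-5 and 0.632, 2.84 and 1.499 RPM in wild type, so the groups overlapped. It was singled out after its values were seen.

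**Figure D3:**
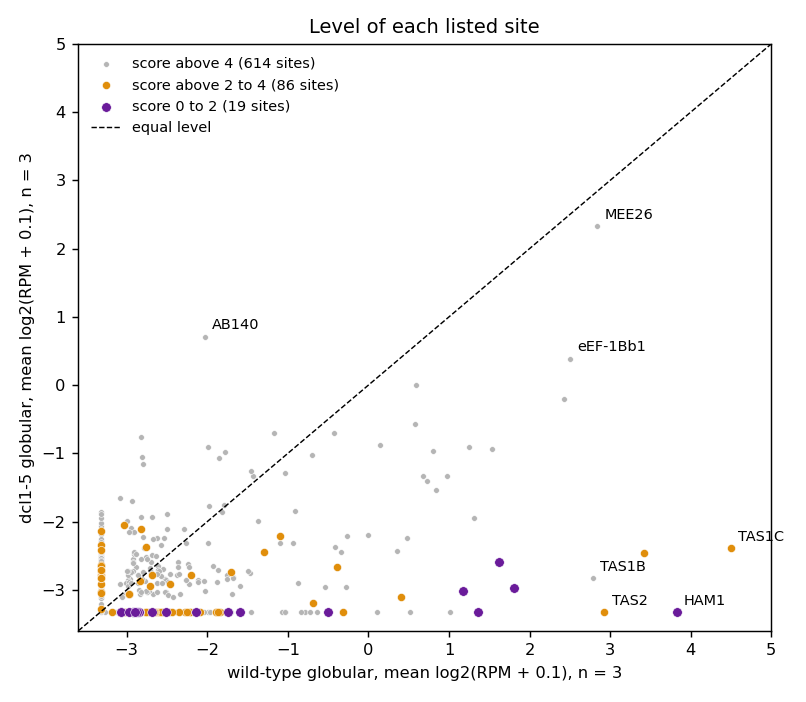
Mean log2(RPM + 0.1) of each of the 719 sites in dcl1-5 (y axis) against wild type (x axis), over 3 libraries each, with sites of score 0 to 2 in purple, above 2 to 4 in orange and above 4 in grey, and a dashed line at equal level. The purple sites lie along the bottom, where dcl1-5 is at or near 0 RPM, while MEE26 and eEF-1Bb1 lie nearer the line and CAB1 (AB140) above it.

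The sites were also sorted by a mark in the tables and by their calls at other stages. The tables mark 40 of the 719 sites as verified, 11 of score 0 to 2, 22 above 2 to 4 and 7 above 4, and the sources used here do not give the ground for the mark, so its independence of the score or of these libraries is not known. The verified sites summed to 1.25, 1.06 and 0.794 RPM in dcl1-5 and 108.5, 82.8 and 63.4 RPM in wild type, an 81.9-fold difference. Of their wild-type mean sum of 84.9 RPM, TAS1C, HAM1, TAS1A and TAS2 held 23.7, 15.0, 10.8 and 7.57 RPM. The other 679 sites summed to 89.5, 78.9 and 26.4 RPM in dcl1-5 and 117.7, 109.0 and 105.0 RPM in wild type, a 1.70-fold difference. Both differences had p = 0.1 in the two-sided exact permutation test, the smallest possible. Without dcl1-5 replicate 3, the dcl1-5 mean over the wild-type mean was 0.0136 for the verified sites and 0.761 for the others.

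Significance at other stages was drawn from libraries that are not in the comparison. All of them are wild type, so a site could gain this mark only where DCL1 is intact. The mark thus favours sites that are high in wild type, and the differences below are not independent support. Of the 719 sites, 73 were EndCut-significant in at least 1 of the 21 wild-type libraries of other stages, and they summed to 5.45, 4.25 and 1.66 RPM in dcl1-5 and 120.4, 96.8 and 71.3 RPM in wild type. That is a 25.4-fold difference, with TAS1C, HAM1, TAS1A and TAS2 among these sites. The 646 other sites summed to 85.3, 75.7 and 25.6 RPM in dcl1-5 and 105.8, 95.0 and 97.1 RPM in wild type, a 1.60-fold difference. Without dcl1-5 replicate 3 the dcl1-5 mean of these 646 sites was 0.811 of the wild-type mean.

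Within score classes the same mark separated the sites. Above 4, the 19 sites significant at another stage summed to 3.30, 2.46 and 0.911 RPM in dcl1-5 and 17.2, 17.2 and 13.8 RPM in wild type, a 7.24-fold difference, and the 595 others differed 1.59-fold. Without dcl1-5 replicate 3 the dcl1-5 mean of these 595 sites was 0.814 of the wild-type mean. Between 2 and 4, the 35 sites significant at another stage summed to 1.70, 1.69 and 0.748 RPM in dcl1-5 and 64.9, 49.6 and 37.5 RPM in wild type, a 36.7-fold difference. TAS1C, TAS1A and TAS2 held 23.7, 10.8 and 7.57 RPM of their wild-type mean sum of 50.6 RPM. The 51 others of that class had 2.75, 1.70 and 0.781 RPM in dcl1-5 and 2.27, 4.26 and 2.76 RPM in wild type, and these groups overlapped (exact permutation test, two-sided, p = 0.2). All 19 sites of score 0 to 2 were significant at another stage.

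**Figure D4:**
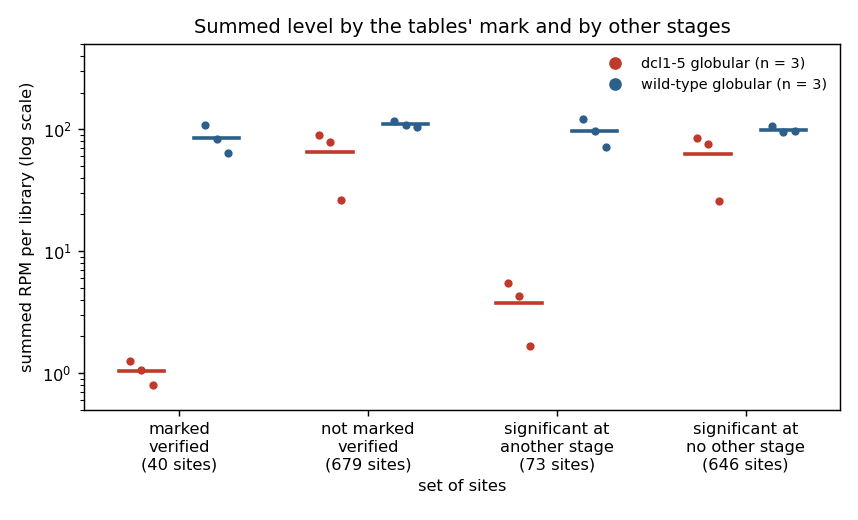
Summed RPM per library (y axis, log scale) for sites marked verified in the tables, sites not so marked, sites EndCut-significant in at least 1 of the 21 wild-type libraries of other stages, and sites significant in none (x axis), with 1 point per library and a bar at the mean of 3 libraries, dcl1-5 in red and wild type in blue. The dcl1-5 libraries lie at 0.794 to 1.25 RPM for the verified sites, against 63.4 to 108.5 RPM in wild type, and at 25.6 to 85.3 RPM for the sites significant at no other stage, against 95.0 to 105.8 RPM in wild type.

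Being listed at another stage said less. Above 4, 215 of the 294 sites listed in wild type alone were also listed in at least 1 of the 21 other wild-type libraries, which is 73.1%, and so were 121 of the 166 sites listed in dcl1-5 alone, which is 72.9%. Of the 154 sites listed in both genotypes, 95.5% were listed elsewhere. Their transcripts also had the highest median level in dcl1-5 mRNA-seq, 49.1 TPM, against 20.2 TPM for sites listed in dcl1-5 alone and 14.4 TPM for sites listed in wild type alone. Between 2 and 4, 43 of 50 sites listed in wild type alone and 9 of 16 listed in dcl1-5 alone were listed at another stage.

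Summed over all sites of a family, the level of 7 families was lower in dcl1-5, 8.43% of the 83 tested, and that of 0 was higher (limma adjusted p below 0.05). At an unadjusted p below 0.05 the counts were 21 lower and 0 higher, and leaving out dcl1-5 replicate 3 gave 1 higher family. The arms of a precursor count as separate families. The miR173-5p family, with 7 sites, had 0.312, 0.124 and 0.384 RPM in dcl1-5 and 65.5, 45.3 and 38.6 RPM in wild type (log2 fold change -7.10 ± 0.85 SE, limma adjusted p = 1.70e-13). The miR170/miR171-3p family had 0.197, 0.523 and 0 RPM in dcl1-5 and 25.6, 21.0 and 11.7 RPM in wild type (limma adjusted p = 3.48e-09). The miR160-5p family had 0.356, 0.207 and 0 RPM in dcl1-5 and 8.36, 4.50 and 4.56 RPM in wild type, and the miR165/miR166-3p family 0, 0.0883 and 0 RPM in dcl1-5 and 5.05, 3.95 and 1.35 RPM in wild type, both with a limma adjusted p of 6.47e-05. These 4 calls were kept in all 14 alternative settings.

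The other 3 families were called with weaker support. The miR161.2 family had 0.161, 0 and 0 RPM in dcl1-5 and 0.909, 1.04 and 1.72 RPM in wild type (limma adjusted p = 0.0149), and the call was kept in 8 of 14 alternative settings and lost without dcl1-5 replicate 2 or wild-type replicate 2 or 3 (limma adjusted p of 0.0560 to 0.133). The miR831-3p family, whose 18 sites include the ribosomal L41 genes, had 3.96, 3.97 and 0 RPM in dcl1-5 and 8.75, 7.90 and 8.24 RPM in wild type (limma adjusted p = 0.0202), with 0 of its sites called. Its call was kept in 9 of 14 alternative settings and lost without any 1 wild-type replicate (limma adjusted p of 0.138 to 0.219), and its log2 fold change was -2.83, or -1.04 without dcl1-5 replicate 3. The miR5644 family had 0.324, 0 and 0.148 RPM in dcl1-5 and 2.59, 1.16 and 1.02 RPM in wild type (limma adjusted p = 0.0453), a call kept in 6 of 14 settings and lost without dcl1-5 replicate 2 or any 1 wild-type replicate (limma adjusted p of 0.125 to 0.246). In all 3 the groups did not overlap, but this does not set them apart. The groups also did not overlap in families that were not called, among them miR396-5p, miR403-3p and miR156/miR157-3p.

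Other families with many sites or high levels did not pass the test. The 38 sites of the miR156/miR157-5p family summed to 4.08, 1.47 and 1.18 RPM in dcl1-5 and 4.80, 4.12 and 2.50 RPM in wild type, although none of its score 0 sites was listed in dcl1-5. The 49 sites of the miR396-5p family had 5.23, 4.11 and 2.54 RPM in dcl1-5 and 10.4, 9.49 and 8.12 RPM in wild type. The miR390-5p family, led by MEE26, had 14.4, 18.7 and 1.65 RPM in dcl1-5 and 10.6, 12.4 and 10.2 RPM in wild type. It held the TAS3C site and the second TAS3A site, which were lower, the other TAS3A site, which was not tested, and the highest site that was not lower. Without dcl1-5 replicate 3 the family was called higher (log2 fold change 0.57 ± 0.20 SE, limma adjusted p = 0.0341).

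The miRNAs themselves were read in separate globular small RNA libraries, as RPM of reads of 20 to 24 bases, scaled by the authors to genome-matching reads. The miR165/miR166-3p family had 11.1, 10.003 and 22.6 RPM in dcl1-5, against 653, 601 and 907 RPM in wild type. The miR156/miR157-5p family had 10.5, 10.8 and 47.3 RPM in dcl1-5 and 1694, 2788 and 4651 RPM in wild type. The miR831-3p family had 3.91, 0.973 and 4.40 RPM in dcl1-5 and 1153, 956 and 1263 RPM in wild type. The order of the miRNA levels was not that of their sites. The targeting arm, miR173-5p, was at 0 in all 3 dcl1-5 libraries and at 0, 0 and 2.06 RPM in wild type, although its sites had the highest summed level of any family in wild type. The other arm of the same precursor, miR173-3p, had 7.16, 6.32 and 21.3 RPM in dcl1-5 and 1350, 1090 and 2235 RPM in wild type. The miR170/miR171-3p family likewise had 0 RPM in dcl1-5 and only 4.77, 4.31 and 2.27 RPM in wild type. For miR5665, miR5644 and miR842, to which the CAB1 site is assigned, 0 RPM was measured in all 6 small RNA libraries.

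**Figure D5:**
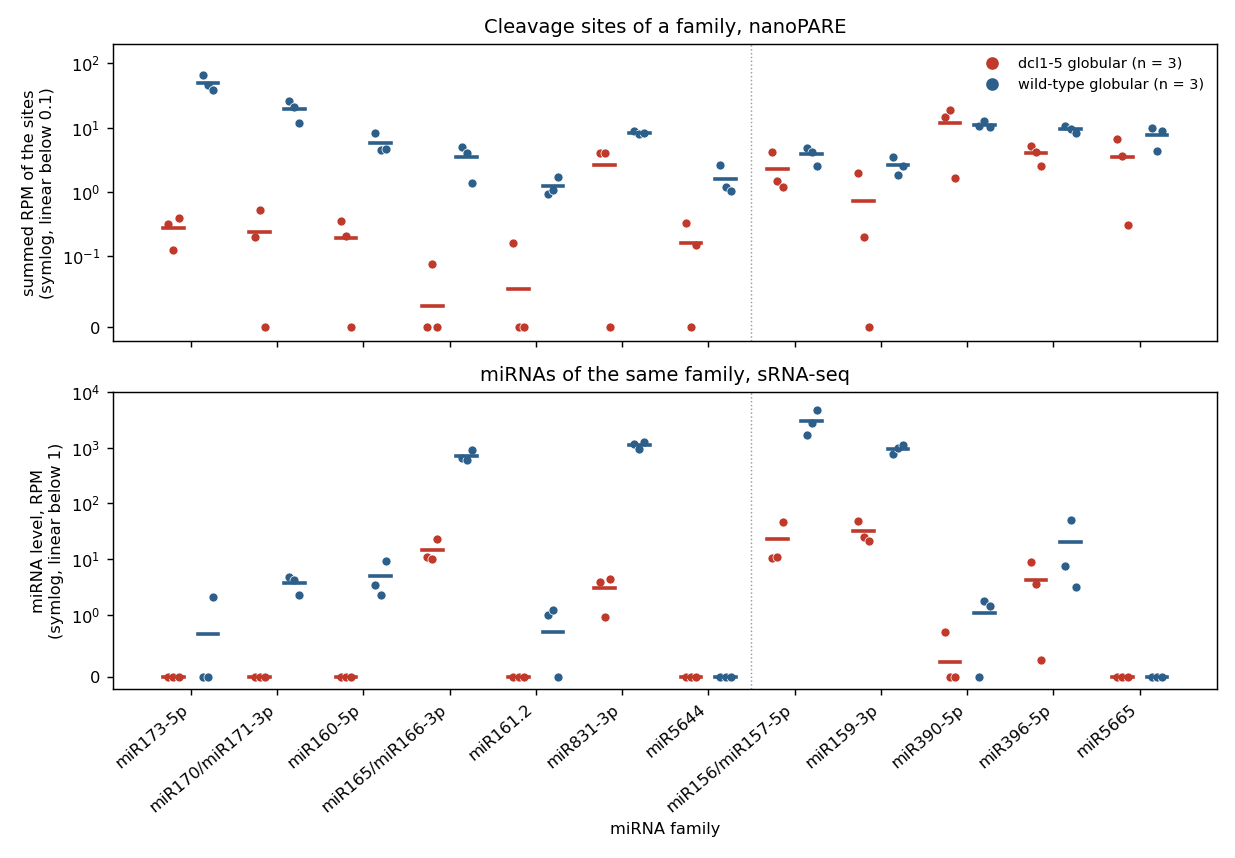
Summed RPM of the cleavage sites of 12 miRNA families (upper panel) and RPM of the miRNAs of the same families in separate small RNA libraries (lower panel), both on symlog y axes, with 1 point per library and a bar at the mean of 3 libraries, dcl1-5 in red and wild type in blue. Families left of the dotted line passed the limma threshold for their sites, and miR173-5p, the highest in the upper panel at 38.6 to 65.5 RPM in wild type, is at 0 to 2.06 RPM in the lower one, which leaves out the miR173-3p arm.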

How the data were processed

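EndCut tables of 3 dcl1-5 and 3 wild-type globular nanoPARE libraries were analysed. Per the labels and the paper's methods, the authors trimmed reads with cutadapt, aligned them with STAR to TAIR10, masked capped 5′ ends merged with those of floral buds, and ran EndCut. The deposited levels are RPM at the cut position, beside a deposited adjusted p-value and Allen score. The authors' small RNA tables hold estimated counts and RPM for reads of 20 to 24 bases, and their dcl1-5 mRNA-seq tables hold kallisto TPM and estimated counts, of which TPM was summed over isoforms. Masking and the listing of candidate sites alone mean that a site absent from a table may have had a low level.

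Sites absent from a table were set to 0 RPM. Sites or families listed in at least 2 of 6 libraries were tested with limma 3.58.1 (R 4.3.3) with an intensity trend on log2(RPM + 0.1), with Benjamini-Hochberg adjustment over all tested. The fit was also tried on simulated normal values. These held no unlisted sites at 0 RPM, so that trial does not cover sites at the floor. Per-library sums and counts went into an exact permutation test of the difference in means, two-sided (Python 3.11.15). With no counts, precision rests on the spread between libraries, which limma pools over all tested sites through the intensity trend. A limma SE is thus largely that of sites of a like level, not the spread of a site's own 3 libraries. The ATPD and PHB sites both had an SE of 0.906 on the log2 scale, with wild-type SDs of 0.0794 and 0.816 RPM. Families join miR156 with miR157, miR165 with miR166 and miR170 with miR171, drop letters and keep arms. Gene symbols come from the lists, the tables or RefSeq, which matched 683 of 688 genes. Target sites were found as the best ungapped pairing in the RefSeq TAIR10.1 transcript, which gave the deposited score at 203 of 719 sites and at 18 of 19 of score 0 to 2, and only such sites are printed, since transcript positions in the tables follow other models in part. Named sites are the 12, 6 and 6 with the highest mean RPM over the 6 libraries in the 3 score classes, up to 10 limma calls in each direction by size, sites EndCut-significant in dcl1-5, sites of score 4 or less listed in all 3 dcl1-5 libraries (0 sites) and members of the target lists, beside those said to be chosen after their values were seen. The members, the lists and the rules were chosen with earlier results of these data known. The alternatives tried are given with their effects in the closing section.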

Additional observations from a re-analysis of the deposited data

How the results depend on the processing

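Of the results with an exact test, all 12 kept their direction in all 119 alternative values, and their p could not pass 0.05 in any design tried. The difference in the log2 ratio of the classes was -3.65 with a pseudocount of 1 RPM, against -5.97 as reported. Of the 21 called sites, 11 kept their call in every alternative: HAM1, HAM2, ARF17, AGO2, TAS1A, TAS1B, TAS1C, TAS2, TAS3A, TAS3C and ATPD. The count of lower sites, 20 as reported, was 13 with no filter on listing, 13 after scaling each library to the summed level of sites above 4, and 32 with all 27 embryo libraries in 1 fit. It ranged over 11 to 21 with 1 library left out, with 11 without wild-type replicate 1. The count of higher sites, 1 as reported, was 0 with a pseudocount of 1 or 0.01 RPM and with no filter, and 4 with all 27 embryo libraries (MYB11, CAB1, LOG2 and YSL7). It ranged over 0 to 1 with 1 library left out. It was 0 without dcl1-5 replicate 2 or any 1 wild-type replicate, and without dcl1-5 replicate 3 the 1 higher site was MEE26. The count of lower families, 7 as reported, was 4 with a pseudocount of 0.01 RPM, 4 after the scaling to sites above 4, and 14 with all 27 embryo libraries. It ranged over 4 to 16 with 1 library left out, with 16 without dcl1-5 replicate 1, 11 without dcl1-5 replicate 3 and 4 without wild-type replicate 3. The count of higher families, 0 as reported, was 1 with all 27 embryo libraries (miR848) and ranged over 0 to 1 with 1 library left out, with 1 without dcl1-5 replicate 3. The cause was not tested for any of these shifts. With the replicate number as a block, 13 sites were lower and 0 higher, and the paired exact tests gave p = 0.25 at best. Deviations of same-numbered libraries correlated at 0.0155, 0.0154 and -0.0838, so the numbers were not taken as pairs. Merging genes with identical levels, an alternative chosen after seeing the data, left 20 lower sites. The edgeR and DESeq2 fits were not run, since whole reads were not recovered.

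The depth in reads is not known, and the tables hold candidate sites alone. With 3 libraries a genotype, 450 of the 719 sites were listed in a single library and could not be tested.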
